A study of Mus musculus with 12 samples.

Results

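Lymphocytes reach a tissue, stay in it or leave it through a small set of surface receptors, and 9 genes for such receptors (Ccr7, S1pr1, Cxcr4, Cxcr5, Cxcr3, Ccr6, Cd69, Itga4 and Itgb7) were described in aortas from a mouse study of atherosclerosis. They were chosen by name, for their roles in homing and retention, from the 32245 gene symbols of the files, and all 9 were found there. Their levels were read in 5691 cells of 34263, those that marker genes placed among B cells, CD4 T cells, CD8 T cells or cytotoxic cells. Levels are UMIs of a gene per 1e+06 UMIs of the class (CPM). Ccr7 stood at 581 CPM in B cells of the library labelled Healthy, against 98.7 to 150.5 CPM in the other 3 classes. Cd69 stood more than 2-fold lower in the MTZ-treated library than in the library labelled Healthy in both classes that could be read there. This rests on 9 UMIs in 54 B cells and 36 UMIs in 129 cytotoxic cells of MTZ-treated. Of all genes, 8.87% in B cells and 3.94% in cytotoxic cells were lower past 2-fold as well.

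The genes work in sequence. Ccr7 answers to Ccl19 and Ccl21 and brings naive lymphocytes into lymph nodes, S1pr1 answers to sphingosine 1-phosphate in blood and lymph and lets them out again, and Cd69, which appears early after activation, binds S1pr1 and draws it off the surface so that the cell stays. Cxcr4 holds cells near sources of Cxcl12, Cxcr5 guides B cells and helper T cells into follicles along Cxcl13, Cxcr3 directs effector cells towards the interferon-induced chemokines Cxcl9 and Cxcl10, and Ccr6 answers to Ccl20. Itga4 is the integrin alpha4 chain, which pairs with Itgb7 to bind Madcam1 or with Itgb1 to bind Vcam1 on activated endothelium. In the artery wall, such receptors act on lymphocytes of the adventitia, of the fat around the vessel and of the plaque.

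The mice were male C57BL/6J ApoE-/- animals by the study's account, in groups of 18 that were 8 weeks old at the start and were fed for 24 weeks, and ApoE-/- mice, which lack apolipoprotein E in every cell, develop plaques on a fatty diet. Saline and a normal diet were given to the animals labelled Healthy, and the AS group received a diet with 1% cholesterol and 10% fat and saline, and the other 2 groups the same fatty diet with methazolamide (MTZ, an inhibitor of carbonic anhydrases, spelled methoxazolamide in the sample labels) at 25 mg/kg. MTZ was given for the last 12 weeks in the MTZ-treated group and for all 24 weeks in the MTZ-preventive group. Each group is 1 gene expression library from 6 pooled aortas, beside 1 B cell receptor and 1 T cell receptor library, which leaves no measure of how mice of 1 group vary, and no difference between groups was tested.

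The libraries kept 2160 to 14186 cells with 3691072 to 32880991 UMIs and medians of 1296 to 1900 UMIs per cell. Apoe, which all groups should lack, stood at 679 CPM in the library labelled Healthy and at 8.33 to 13.0 CPM in the other 3, so the RNA of the library labelled Healthy went against its genotype label, and every direction drawn from that library carries this. Between 7.20% and 9.32% of the barcodes of a library occurred in another one as well. The library labelled Healthy gave 4039 lymphocytes, AS 19, MTZ-treated 203 and MTZ-preventive 1430. The AS library, with 13 B cells, 1 CD4 T cell, 1 CD8 T cell and 4 cytotoxic cells, was too small to be read for any of the 9 genes. The MTZ-treated library could be read in 54 B cells and 129 cytotoxic cells only, since it held 4 CD4 T and 16 CD8 T cells.

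The gates were checked against the receptor libraries, which they did not use. The 8 B cell genes, which the gate itself used, summed to 4301 to 5338 CPM in B cells and to 12.8 to 41.7 CPM in the other classes, as a description only. A paired B cell receptor was found for 45.8% of the B cells in the library labelled Healthy, 29.6% in MTZ-treated and 48.4% in MTZ-preventive. A T cell receptor was found for 62.6% and 57.4% of CD4 T cells in the library labelled Healthy and MTZ-preventive, and for 47.3% and 37.7% of CD8 T cells. Cytotoxic cells, which the gate defines by genes such as Nkg7, Gzma and Ccl5 and which can be natural killer cells or T cells, had one in 41.7%, 10.9% and 29.5% of cells in the library labelled Healthy, MTZ-treated and MTZ-preventive. The MTZ-treated library had the lowest share, at a median of 1538 UMIs per cytotoxic cell against 3344 and 2350 UMIs in the other 2.

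The sequences just upstream of Cxcr4 and Itga4 are shown because both genes stood lower in CD8 T cells of the MTZ-preventive library, as described below. That choice was made from these data, on 14 and 17 UMIs in that library and means under 50 CPM. RefSeq windows (GRCm38.p6, the assembly of mm10) were matched for 5 of the 9 members. The Cxcr4 window covers chr1:128592300-128592549 and is read on the minus strand, and the Itga4 window covers chr2:79255176-79255425 on the plus strand. Capitals mark matches, on either strand, to CACCC (a core of sites for Klf factors), TGTGGT (Runx) or TGANTCA (AP-1).
Cxcr4: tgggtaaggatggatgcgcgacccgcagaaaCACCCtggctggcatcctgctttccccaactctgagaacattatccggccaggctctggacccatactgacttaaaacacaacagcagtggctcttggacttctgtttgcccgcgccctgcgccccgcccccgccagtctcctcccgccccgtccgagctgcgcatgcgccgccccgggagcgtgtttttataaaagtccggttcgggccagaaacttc
Itga4: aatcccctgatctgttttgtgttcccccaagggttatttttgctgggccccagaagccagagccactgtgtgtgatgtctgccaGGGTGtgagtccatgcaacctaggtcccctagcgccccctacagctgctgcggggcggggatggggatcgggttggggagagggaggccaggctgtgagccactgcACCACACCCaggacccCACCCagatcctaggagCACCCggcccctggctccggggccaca
The Cxcr4 window held 1 match, to CACCC, and the Itga4 window held 5, of which 4 were to CACCC and 1 to TGTGGT, the last overlapping a CACCC. The Itgb7 window, not shown, held 4 matches, all to CACCC. Itgb7 in CD8 T cells had a log2 ratio of -0.05 (-0.45 to 0.34), MTZ-preventive to the library labelled Healthy. Of 32536 windows of 250 bases, 52.1% held CACCC, 14.0% TGTGGT and 6.73% TGANTCA. A match is a description of the letters and not a bound site.

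**Figure D1:**
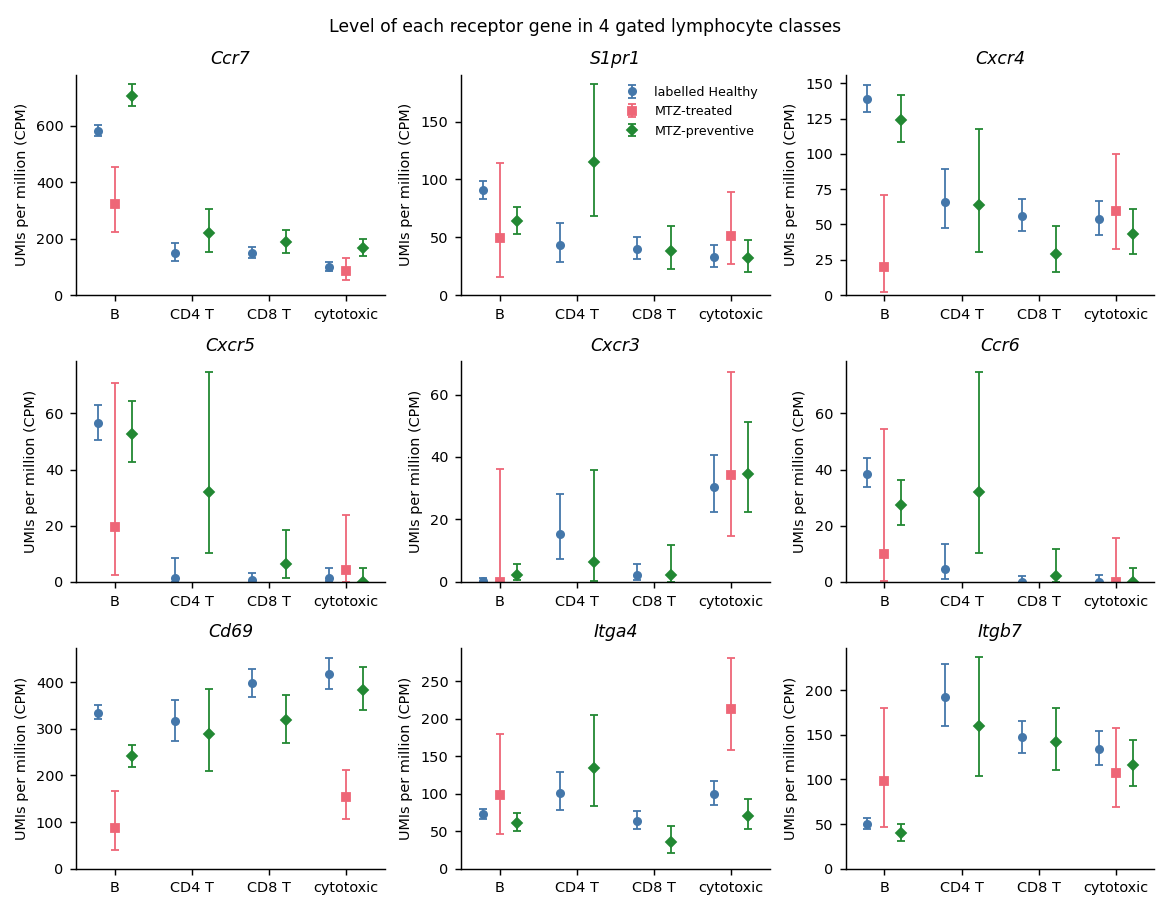
Level of the 9 genes in the 4 lymphocyte classes, as UMIs of the gene per 1e+06 UMIs of the class (CPM, linear axes from 0), with 1 point for each library that held at least 50 cells of the class and exact Poisson 95% intervals. Ccr7, S1pr1, Cxcr4, Cxcr5 and Ccr6 were higher in B cells than in the other classes of the library labelled Healthy, Itgb7 was lower in B cells there, and Cxcr3 was highest in cytotoxic cells.

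Ccr7 (ENSMUSG00000037944, chr11:99144199-99155077 in GRCm38.p6) is the lymph node entry receptor. In B cells it stood at 581 CPM in the library labelled Healthy (3374 UMIs, 95% interval 562 to 601), 323 CPM in MTZ-treated (33 UMIs, 222 to 454) and 707 CPM in MTZ-preventive (1284 UMIs, 668 to 746), so the MTZ-treated library was the low one and no interval overlapped another. All intervals here cover counting error only, and not the spread between cells or mice. In CD4 T cells Ccr7 stood at 150.5 and 218 CPM and in CD8 T cells at 149.9 and 186 CPM, in the library labelled Healthy and MTZ-preventive in that order. In cytotoxic cells it stood at 98.7, 85.3 and 165 CPM in the library labelled Healthy, MTZ-treated and MTZ-preventive. B cells were above each other class in every library that could be read, by 1.70 to 2.56 on the log2 scale. CD4 T and CD8 T cells could not be told apart, with a log2 ratio of 0.01 (-0.34 to 0.35) in the library labelled Healthy.

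After each cell was thinned to 1000 UMIs, 37.6% of B cells of the library labelled Healthy had a Ccr7 UMI (95% interval 35.8% to 39.4%), against 22.2% (12.04% to 35.6%) in MTZ-treated and 43.6% (40.4% to 46.9%) in MTZ-preventive. The shares without thinning were 54.2%, 27.8% and 58.3%, where the median B cell held 1945, 1470.5 and 1723 UMIs. The thinned shares kept the order of the levels. Smooth muscle cells, which should lack Ccr7, had it in 5.35%, 0.260% and 3.83% of cells at the same thinned depth, with unthinned median depths of 1639, 1523 and 1528 UMIs. In CD8 T cells the thinned share was 10.2% in the library labelled Healthy and 12.02% in MTZ-preventive, with intervals that overlap (7.80% to 13.0% and 7.69% to 17.6%).

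The Ccr7 difference between the MTZ-preventive library and the library labelled Healthy went the same way in all 4 classes, which come from the same 2 libraries. The log2 ratio was 0.28 (0.19 to 0.38) in B cells, 0.53 (-0.07 to 1.11) in CD4 T cells, 0.31 (-0.05 to 0.67) in CD8 T cells and 0.74 (0.38 to 1.10) in cytotoxic cells, so only B and cytotoxic cells had an interval that left out 0. The 10th to 90th percentile of all genes tested ran from -0.45 to 0.45 in B cells and -0.59 to 0.84 in CD4 T cells. In CD8 T cells it ran from -0.52 to 0.45 and in cytotoxic cells from -0.43 to 0.49. Of these 4 ratios of Ccr7 only the cytotoxic one lay outside its range. In B cells of MTZ-treated the log2 ratio to the library labelled Healthy was -0.85 (-1.39 to -0.35), and MTZ-preventive stood above MTZ-treated by 1.13 (0.63 to 1.67). The first lay inside the range over all genes for its comparison, -0.92 to 0.92. The second lay outside its range, -0.82 to 0.93. The 3 B cell ratios share libraries and are not independent of each other.

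Few cells carried much of this signal in the smaller classes. In cytotoxic cells of MTZ-treated the 20 Ccr7 UMIs lay in 3 cells, 14 of them in 1 cell. Of those 20 UMIs, 19 lay in 2 cells that also held at least 30 UMIs of the MHC class II genes Cd74, H2-Aa and H2-Ab1, which B cells and dendritic cells express highly. In MTZ-preventive 25 of 119 UMIs lay in 3 such cells, and in the library labelled Healthy 0 of 149. Without those cells, a step chosen after seeing the data, cytotoxic Ccr7 stood at 99.3, 4.38 (1 UMI) and 132 CPM, and the log2 ratio of MTZ-preventive to the library labelled Healthy was 0.41 (0.02 to 0.79). That ratio lay inside the range over all genes given above, which was taken with those cells. The ratio of MTZ-treated to the library labelled Healthy moved from -0.21 (-0.96 to 0.47) to -4.50 (-9.82 to -2.002), on that 1 UMI. In B cells of MTZ-treated 10 of 33 UMIs lay in 1 cell and 51.5% in 3 cells, against 2.26% in 3 cells in MTZ-preventive. In CD4 T cells of MTZ-preventive 3 cells held 61.8% of the 34 UMIs.

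S1pr1 (ENSMUSG00000045092, chr3:115710433-115715055), the exit receptor, followed another order. In B cells it stood at 90.8 CPM in the library labelled Healthy (527 UMIs), 48.97 CPM in MTZ-treated (5 UMIs) and 63.8 CPM in MTZ-preventive (116 UMIs). In CD4 T cells it stood at 43.0 CPM (28 UMIs) in the library labelled Healthy and 115 CPM (18 UMIs) in MTZ-preventive. CD8 T cells had 39.7 and 37.7 CPM in the same 2 libraries, and cytotoxic cells 32.5, 51.2 and 31.9 CPM in the library labelled Healthy, MTZ-treated and MTZ-preventive. The B cell level was thus lower in MTZ-preventive than in the library labelled Healthy, with a log2 ratio of -0.51 (-0.81 to -0.22), and the CD4 T cell level was higher, with a log2 ratio of 1.42 (0.48 to 2.33). The difference between those 2 ratios was not tested. B cells were above CD4 T cells in the library labelled Healthy by 1.08 (0.53 to 1.68) and below them in MTZ-preventive, at -0.85 (-1.58 to -0.05).

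The CD4 T value rests on few cells. The 18 UMIs of MTZ-preventive lay in 10 of 61 cells, 5 of them in 1 cell and 61.1% in 3 cells. The thinned share of cells with an S1pr1 UMI was 14.8% (6.98% to 26.2%) there against 4.21% (1.94% to 7.83%) in the library labelled Healthy, on 9 cells in each. As shares of cells the 2 intervals still overlapped. Smooth muscle cells, in which S1pr1 is also transcribed, stood at 38.1 to 101 CPM, lowest in the library labelled Healthy. In that library CD4 T cells, at 43.0 CPM, and CD8 T cells, at 39.7 CPM, were little above smooth muscle, and cytotoxic cells, at 32.5 CPM, were below it. In MTZ-preventive the levels of CD8 T cells, at 37.7 CPM, and cytotoxic cells, at 31.9 CPM, were no higher than that of smooth muscle.

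Cd69 (ENSMUSG00000030156, chr6:129267324-129275375), the retention receptor, stood at 316 to 418 CPM in all lymphocyte classes of the library labelled Healthy and was low in MTZ-treated. In B cells it stood at 335 CPM in the library labelled Healthy (1944 UMIs), 88.1 CPM in MTZ-treated (9 UMIs) and 241 CPM in MTZ-preventive (438 UMIs). In cytotoxic cells it stood at 418 CPM (631 UMIs), 154 CPM (36 UMIs) and 384 CPM (277 UMIs) in the same order. MTZ-treated was the lowest library in both classes, and its intervals (40.3 to 167 CPM in B cells and 108 to 213 CPM in cytotoxic cells) did not reach those of the other 2. The log2 ratio of MTZ-treated to the library labelled Healthy was -1.93 (-3.06 to -0.998) in B cells and -1.44 (-1.97 to -0.96) in cytotoxic cells. The thinned share of cells with a Cd69 UMI was 25.3%, 9.26% and 21.3% in B cells and 26.4%, 15.5% and 24.2% in cytotoxic cells, in the same order of libraries. In smooth muscle cells it was 5.35%, 0.130% and 2.67%.

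Between the 2 larger libraries Cd69 moved less. MTZ-preventive stood below the library labelled Healthy in B cells, with a log2 ratio of -0.47 (-0.63 to -0.32), and in CD8 T cells, at 318 against 397 CPM and a log2 ratio of -0.32 (-0.58 to -0.06). CD4 T cells, at 288 against 316 CPM, and cytotoxic cells had intervals that span 0. Within a library, B cells stood below cytotoxic cells by -0.32 in the library labelled Healthy (-0.45 to -0.19) and -0.67 in MTZ-preventive (-0.89 to -0.45), and cytotoxic and CD8 T cells could not be told apart in either. Cd69 responds to activation and to the handling of tissue, and the 13 immediate early genes of the list used, such as Fos, Jun and Nr4a1, summed in B cells to 25136 CPM in the library labelled Healthy, 17502 CPM in MTZ-treated and 25450 CPM in MTZ-preventive, with 12 of 13 detected in MTZ-treated. In cytotoxic cells they summed to 17390, 14382 and 21603 CPM, with all 13 detected. Their part in the Cd69 difference was not tested.

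Cd69 protein removes S1pr1 from the cell surface, and the transcripts of both were read together in single B cells thinned to 1000 UMIs. In the library labelled Healthy 52 cells had a UMI of both, where the product of the 2 shares gives 62.1 cells, a ratio of 0.837 (0.625 to 1.10). In MTZ-preventive 11 cells had both where the product gives 14.3, a ratio of 0.770 (0.384 to 1.38). Both ratios lay below 1 with intervals that include it, so at this depth neither exclusion nor independence could be read. The transcripts of Itga4 and Itgb7, the 2 chains of one integrin, met in 12 B cells of the library labelled Healthy against 9.66 from the product, a ratio of 1.24 (0.642 to 2.17). In MTZ-preventive they met in 1 B cell against 2.15 from the product, a ratio of 0.466 (0.0118 to 2.59), so these ratios lay on either side of 1 with intervals that include it.

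Cxcr4 (ENSMUSG00000045382, chr1:128588199-128592299), the receptor for Cxcl12, was highest in B cells of the 2 larger libraries, at 139 CPM (807 UMIs) in the library labelled Healthy and 124 CPM (226 UMIs) in MTZ-preventive. In MTZ-treated B cells it stood at 19.6 CPM, on 2 UMIs, and that interval of 2.37 to 70.8 CPM did not overlap the other 2. CD4 T cells had 66.0 and 64.1 CPM in the library labelled Healthy and MTZ-preventive, and cytotoxic cells 53.7, 59.7 and 43.0 CPM in the library labelled Healthy, MTZ-treated and MTZ-preventive. CD8 T cells had 55.9 CPM (100 UMIs) in the library labelled Healthy and 29.3 CPM (14 UMIs) in MTZ-preventive, a log2 ratio of -0.93 (-1.85 to -0.12). The B cell level exceeded that of CD8 T, CD4 T and cytotoxic cells by 0.96 to 2.08 on the log2 scale in these 2 libraries. In MTZ-treated the B cell level was not above that of cytotoxic cells, at -1.61 with an interval of -4.79 to 0.51.

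Cxcr5 (ENSMUSG00000047880, chr9:44511787-44526444), the follicle receptor, was close to a B cell gene. B cells had 56.7 CPM (329 UMIs) in the library labelled Healthy, 19.6 CPM (2 UMIs) in MTZ-treated and 52.8 CPM (96 UMIs) in MTZ-preventive. CD4 T, CD8 T and cytotoxic cells of the library labelled Healthy had 1, 1 and 2 UMIs, CD8 T cells of MTZ-preventive 3, and cytotoxic cells of MTZ-treated and MTZ-preventive 1 and 0. In CD4 T cells of MTZ-preventive there were 5 UMIs, of which 4 lay in 1 cell, and this gave 32.1 CPM. The 2 larger libraries did not differ in B cells beyond counting error, with a log2 ratio of -0.10 (-0.44 to 0.23).

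Ccr6 (ENSMUSG00000040899, chr17:8236041-8258519) was likewise found in B cells, at 38.6 CPM (224 UMIs) in the library labelled Healthy, 9.79 CPM (1 UMI) in MTZ-treated and 27.5 CPM (50 UMIs) in MTZ-preventive. The log2 ratio of MTZ-preventive to the library labelled Healthy was -0.49 (-0.96 to -0.04). No UMI was found in the 444, 129 and 281 cytotoxic cells of the 3 libraries, which allows 1.99, 12.8 and 4.16 CPM in the library labelled Healthy, MTZ-treated and MTZ-preventive by 3 counts of the total, and 2.44, 15.7 and 5.11 CPM by the upper bound of the exact Poisson interval. CD8 T cells had 0 UMIs in the library labelled Healthy and 1 in MTZ-preventive. CD4 T cells had 3 and 5 UMIs, or 4.61 and 32.1 CPM, in the library labelled Healthy and MTZ-preventive.

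Cxcr3 (ENSMUSG00000050232, chrX:101731535-101734147), which marks effector and type 1 cells, was higher in cytotoxic cells than in the other classes. It stood there at 30.5 CPM (46 UMIs), 34.1 CPM (8 UMIs) and 34.6 CPM (25 UMIs) in the library labelled Healthy, MTZ-treated and MTZ-preventive, 3 levels that could not be told apart. CD8 T cells, which the gate limits to at most 1 of the 8 cytotoxic genes, had 4 UMIs and 1 UMI in the library labelled Healthy and MTZ-preventive. Cytotoxic cells were thus above CD8 T cells by 3.77 (2.31 to 5.70) and 4.05 (1.44 to 9.41) on the log2 scale. CD4 T cells had 15.4 CPM (10 UMIs) and 6.41 CPM (1 UMI), and B cells 2, 0 and 4 UMIs.

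Itga4 (ENSMUSG00000027009, chr2:79255426-79333114), the alpha4 chain, differed in level by more than counting error between all 3 libraries in cytotoxic cells. It stood there at 100.05 CPM (151 UMIs) in the library labelled Healthy, 213 CPM (50 UMIs) in MTZ-treated and 70.7 CPM (51 UMIs) in MTZ-preventive. The log2 ratio of MTZ-treated to the library labelled Healthy was 1.09 (0.60 to 1.56), that of MTZ-preventive to MTZ-treated -1.59 (-2.19 to -1.002), and that of MTZ-preventive to the library labelled Healthy -0.50 (-0.99 to -0.03). MTZ-treated was the high library, with an interval of 158 to 281 CPM that did not reach the others. For MTZ-treated against the library labelled Healthy the 90th percentile of all genes tested was 1.08. The size of that difference depended on the processing, as given below. After thinning, 44 of 444, 20 of 129 and 15 of 281 cytotoxic cells of the library labelled Healthy, MTZ-treated and MTZ-preventive had an Itga4 UMI. B cells had 73.0, 97.9 (10 UMIs) and 61.6 CPM in the library labelled Healthy, MTZ-treated and MTZ-preventive. CD4 T cells had 101 and 135 CPM, and CD8 T cells 64.3 (115 UMIs) and 35.6 CPM (17 UMIs), in the library labelled Healthy and MTZ-preventive. CD8 T cells thus stood lower in MTZ-preventive, with a log2 ratio of -0.85 (-1.68 to -0.11), and CD4 T cells stood above CD8 T cells by 0.66 (0.20 to 1.11) and 1.92 (0.93 to 2.93) in the 2 libraries.

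Itgb7 (ENSMUSG00000001281, chr15:102215994-102233405), the beta7 chain, was a T cell and cytotoxic cell gene in comparison with B cells. It stood at 192 and 160.3 CPM in CD4 T cells, 147 and 142 CPM in CD8 T cells and 134 and 116 CPM in cytotoxic cells, in the library labelled Healthy and MTZ-preventive. B cells had 50.6 CPM (294 UMIs) and 39.6 CPM (72 UMIs), which put them below the other classes by 1.41 to 2.02 on the log2 scale. In MTZ-treated the 2 classes met, at 97.9 CPM (10 UMIs) in B cells and 107 CPM (25 UMIs) in cytotoxic cells, with a log2 ratio of -0.12 (-1.35 to 0.99). Between the library labelled Healthy and MTZ-preventive no class had an interval for Itgb7 that left out 0.

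**Figure D2:**
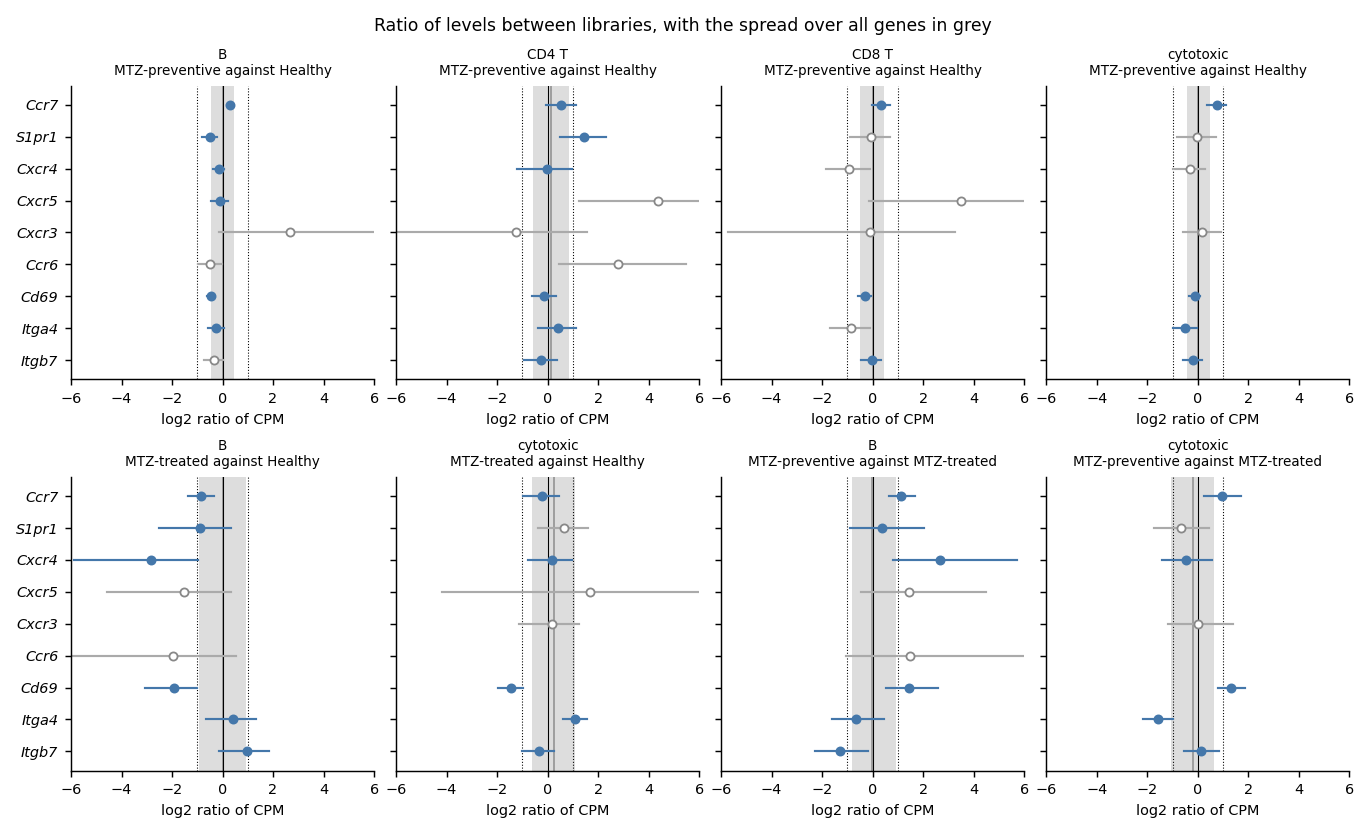
Log2 ratio of CPM between 2 libraries for the 9 genes, 1 panel for each class and pair of libraries, with exact 95% intervals cut at the axis limits. Filled points have a mean of at least 50 CPM and open points less, genes with 0 UMIs in a library are left out, the grey band spans the 10th to 90th percentile of all genes tested with a grey line at their median, and dotted lines mark 2-fold. Cd69 lies left of the 2-fold line in both panels of MTZ-treated against the library labelled Healthy, and S1pr1 lies right of it in CD4 T cells.

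Members passed 2-fold in 5 of 8 comparisons between libraries, of which 4 involve MTZ-treated. A gene was counted as past 2-fold by size alone, with 1 CPM added to both libraries and a mean of at least 50 CPM, and the count carries no test. Between MTZ-preventive and the library labelled Healthy, 0 of 6 members with that mean passed in B cells, where 1.87% of all 2410 genes were higher and 0.747% lower. In CD4 T cells 1 of 6 was higher (S1pr1) and 0 lower, beside 6.45% and 3.2% of all genes. In CD8 T cells 0 of 3 passed, beside 1.87% higher and 1.13% lower, and in cytotoxic cells 0 of 4, beside 2.37% higher and 0.871% lower. Cxcr4 and Itga4 of CD8 T cells, with means under 50 CPM, were not among the 3. The median log2 ratio of the members with that mean was -0.20 in B cells, 0.18 in CD4 T cells, -0.05 in CD8 T cells and -0.16 in cytotoxic cells, beside medians over all genes of 0.00, 0.11, -0.00 and 0.01.

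Comparisons with MTZ-treated had a wider background. Against the library labelled Healthy, 2 of 6 members were lower in B cells (Cxcr4 and Cd69) and 0 higher, beside 8.57% of all genes higher and 8.87% lower. In cytotoxic cells 1 of 5 was higher (Itga4) and 1 lower (Cd69), beside 12.5% higher and 3.94% lower. MTZ-preventive against MTZ-treated had 3 of 6 members higher in B cells (Ccr7, Cxcr4 and Cd69) and 1 lower (Itgb7), beside 8.62% and 6.34%. In cytotoxic cells 1 of 5 was higher (Cd69) and 1 lower (Itga4), beside 4.03% and 11.3%. The medians over all genes in cytotoxic cells were 0.25 and -0.21 for these 2 comparisons, and relative to the first of them Itga4 was less far from the bulk of genes, and Cd69 farther, than its ratio says. The call of Itga4 in MTZ-treated was lost under most alternatives, among them TMM factors, stricter gates and the mean over cells, and its log2 ratio ranged from 0.39 to 1.09 over 10 settings.

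Genes of other aortic cells summed highest in MTZ-treated in cytotoxic cells. The 16 genes of stroma, myeloid cells and fat cells that the gates count summed in cytotoxic cells to 251 CPM in the library labelled Healthy, 2590 CPM in MTZ-treated (12 of 16 detected, with Lum, S100a8, Adipoq and Cidec at 0) and 909 CPM in MTZ-preventive. In B cells they summed to 331, 627 (483 to 800) and 759 CPM (720 to 801), so MTZ-treated and MTZ-preventive could not be told apart. Without the limit on those genes the log2 ratio of Itga4 in cytotoxic cells, MTZ-treated against the library labelled Healthy, was 0.39. An effector and memory list of 8 genes, with Cd44, S100a4, S100a6 and Itgb1 among them, summed in B cells to 218, 1998 and 431 CPM in the library labelled Healthy, MTZ-treated and MTZ-preventive. In MTZ-treated B cells Cxcr6 and Il2rb of that list were at 0. Over all cells the list summed to 2025, 4712 and 2717 CPM in the same order. A list of 8 naive genes summed in B cells to 750, 1224 and 977 CPM, with 4 detected in MTZ-treated. The lists thus do not assign these B cells to a naive or memory type. The part of these genes in the differences was not tested.

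**Figure D3:**
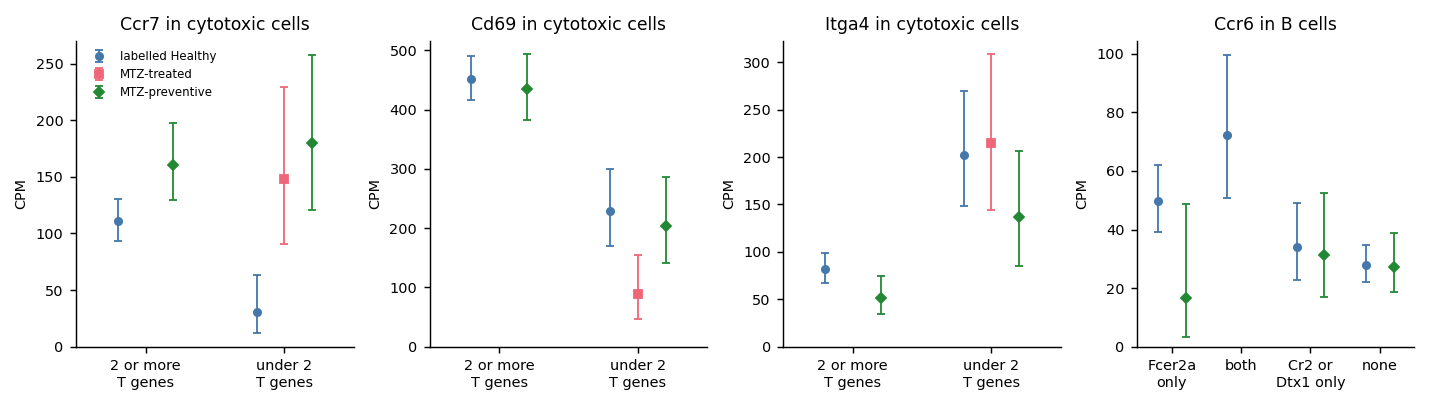
Levels (CPM, linear axes from 0, exact Poisson 95% intervals) in subsets of cytotoxic cells by the number of T cell gate genes detected, and of Ccr6 in B cells by Fcer2a, Cr2 and Dtx1 ("both" stands for Fcer2a with Cr2 or Dtx1), for subsets with at least 50 cells. Cd69 was higher and Itga4 lower in cytotoxic cells with 2 or more T cell genes than in those with fewer, in the library labelled Healthy and in MTZ-preventive.

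Cytotoxic cells were split by how many of the 8 T cell gate genes they showed, a list with Cd247 and Lck. The split alone does not tell natural killer cells from T cells on either side. Cells with fewer than 2, which can be natural killer cells or shallow T cells, were 104 of 444 in the library labelled Healthy, 80 of 129 in MTZ-treated and 84 of 281 in MTZ-preventive, and their median depth was 1953, 1471.5 and 1777 UMIs against 3692, 1654 and 2752 UMIs in the others. Itga4 stood in them at 202, 215 and 136 CPM, so the library labelled Healthy and MTZ-treated could not be told apart there, with a log2 ratio of 0.09 (-0.63 to 0.79). In cells with 2 or more T cell genes Itga4 stood at 81.9 CPM in the library labelled Healthy and 51.8 CPM in MTZ-preventive. The 49 MTZ-treated cells were too few for a level and had 21 Itga4 UMIs of 99582. The 340 such cells of the library labelled Healthy had 105 of 1281543. The split thus does not show that the Itga4 difference was absent in cells with 2 or more T cell genes. Within a library, Itga4 was lower in cells with T cell genes by -1.30 in the library labelled Healthy (-1.82 to -0.77) and -1.40 in MTZ-preventive (-2.25 to -0.53).

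Cd69 ran the other way in the same split. With 2 or more T cell genes it stood at 452 CPM in the library labelled Healthy and 436 CPM in MTZ-preventive, and with fewer at 228, 89.0 and 204 CPM in the library labelled Healthy, MTZ-treated and MTZ-preventive. The cells with fewer T cell genes still differed between MTZ-treated and the library labelled Healthy, by -1.36 (-2.40 to -0.43) on the log2 scale. The 49 MTZ-treated cells with 2 or more T cell genes had 24 Cd69 UMIs of 99582, and the 340 such cells of the library labelled Healthy 579 of 1281543. The thinned share of cells with a Cd69 UMI was 24.5% (13.3% to 38.9%) in MTZ-treated against 29.1% (24.3% to 34.3%) in the library labelled Healthy, intervals that overlap. The share is another measure than the level, so it does not show whether the level was alike. Ccr7 in cells with fewer T cell genes stood at 30.7 CPM (7 UMIs), 148 CPM (20 UMIs) and 179.6 CPM (29 UMIs), and the 49 MTZ-treated cells with 2 or more T cell genes had 0 UMIs. Of the 20 UMIs of MTZ-treated, 19 lay in the 2 cells high in MHC class II genes described above. In MTZ-preventive 25 of the 119 Ccr7 UMIs of all cytotoxic cells lay in 3 such cells, which were not divided by T cell genes. With T cell genes, Ccr7 stood at 111 CPM in the library labelled Healthy and 161 CPM in MTZ-preventive, a log2 ratio of 0.54 (0.14 to 0.93).

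B cells were split by Fcer2a, which marks follicular cells, and by Cr2 or Dtx1, which are higher in marginal zone cells. In the library labelled Healthy, Ccr7 stood at 611 CPM (573 to 651) in cells with Fcer2a alone, 571 CPM with Cr2 or Dtx1 alone, 582 CPM with none of the 3 and 504 CPM (445 to 569.6) in the 223 cells with Fcer2a and Cr2 or Dtx1, whose interval lay below that of Fcer2a alone. In MTZ-preventive it stood at 733, 758 and 673 CPM in the first 3, and the last had 50 UMIs in 30 cells. The log2 ratio of Ccr7, MTZ-preventive to the library labelled Healthy, was 0.41 (0.21 to 0.61) in the cells with Cr2 or Dtx1 alone and 0.21 (0.09 to 0.34) in those with none. With Fcer2a alone Ccr7 also stood higher in MTZ-preventive, but its interval there of 614 to 870 CPM overlapped that of the library labelled Healthy. Cd69 was lower in MTZ-preventive in the first 3, by -0.54 (-1.02 to -0.10), -0.62 (-0.97 to -0.29) and -0.38 (-0.58 to -0.19). Ccr6 in the library labelled Healthy stood at 72.3 CPM (50.9 to 99.7) in cells with Fcer2a and Cr2 or Dtx1, 49.7 CPM (39.3 to 62.0) with Fcer2a alone, 34.1 CPM (22.9 to 49.01) with Cr2 or Dtx1 alone and 27.8 CPM (22.1 to 34.6) with none. MTZ-preventive did not show that order. Ccr6 stood there at 16.7 CPM (3 UMIs, 3.44 to 48.7) with Fcer2a alone, 31.2 CPM (17.1 to 52.4) with Cr2 or Dtx1 alone and 27.4 CPM (18.6 to 38.9) with none.

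CD8 T cells with Il2rb, the CD122 chain, were 97 of 560 in the library labelled Healthy and 33 of 183 in MTZ-preventive. Ccr7 stood at 192 CPM in these cells of the library labelled Healthy and at 139.5 CPM in the other CD8 T cells, a log2 ratio of 0.46 (0.04 to 0.86). In MTZ-preventive it had 30 UMIs of 104325 in the 33 cells, and 158 CPM, or 59 UMIs of 373223, in the 150 cells without Il2rb. That is the same direction as in the library labelled Healthy, on few cells. The thinned shares of cells with a Ccr7 UMI, another measure than the level, had intervals that overlap in both libraries. In the library labelled Healthy they were 11.3% (5.80% to 19.4%) with Il2rb and 9.94% (7.37% to 13.0%) without. In MTZ-preventive the shares were 6.06% (0.743% to 20.2%) with Il2rb, in 33 cells, and 13.3% (8.34% to 19.8%) without, the other way from the levels. No Cxcr3 UMI was found in the 97 Il2rb cells of the library labelled Healthy, which allows 8.47 CPM by 3 counts of the total and 10.4 CPM by the upper bound of the exact Poisson interval, nor in the 33 of MTZ-preventive, beside 4 UMIs and 1 UMI in the 463 and 150 cells without Il2rb. Cells with at least 2 cytotoxic genes were gated as cytotoxic, so these values do not cover CD8 T cells with such genes. The cytotoxic cells of the library labelled Healthy had 46 Cxcr3 UMIs.

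**Figure D4:**
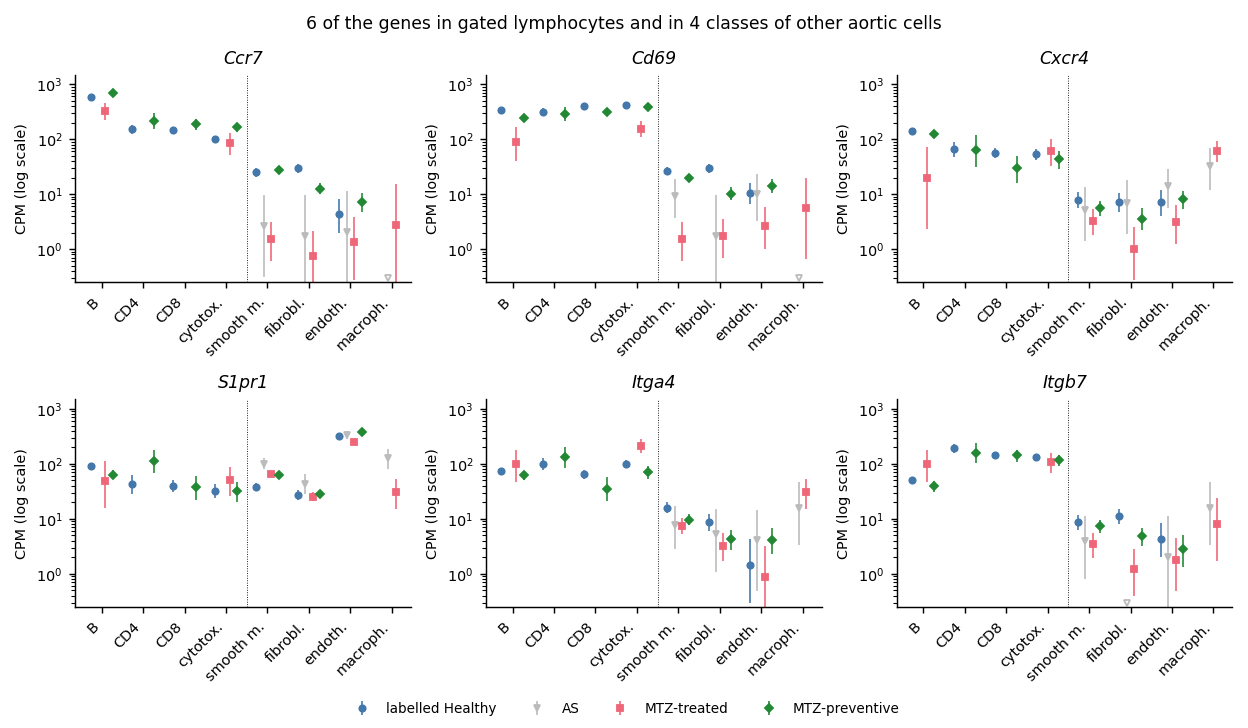
Level of 6 of the genes (CPM, log axis, exact Poisson 95% intervals) in the 4 lymphocyte classes, left of the dotted line, and in smooth muscle, fibroblast, endothelial and macrophage cells, for classes with at least 50 cells. Open symbols at the lower edge stand for 0 UMIs. S1pr1 was highest in endothelial cells, and Ccr7 and Cd69 of smooth muscle and fibroblasts were higher in the 2 libraries with many lymphocytes.

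The other cells of the aorta gave the background of these genes. Endothelial cells, which need S1pr1 for a tight vessel lining, had it at 319.6 CPM in the library labelled Healthy, 338 CPM in AS, 254 CPM in MTZ-treated and 374 CPM in MTZ-preventive, and held 29.3% to 43.1% of all its UMIs. Lymphocytes held 29.9% of the S1pr1 UMIs in the library labelled Healthy and 0.621% to 5.64% elsewhere. Ccr7, in contrast, had 71.3% of its UMIs in gated lymphocytes of the library labelled Healthy and 46.1% in MTZ-preventive. In smooth muscle cells it stood at 24.9 CPM in the library labelled Healthy, 2.62 CPM in AS, 1.51 CPM in MTZ-treated and 27.3 CPM in MTZ-preventive, and in fibroblasts at 29.6, 1.76, 0.744 and 12.7 CPM. Cd69 in smooth muscle followed the same order of libraries in part, at 26.4, 9.18, 1.51 and 19.8 CPM. Such levels in cells that lack the genes were high where lymphocytes were many, and free RNA as their source was not tested. Macrophages, with 88 cells in AS and 137 in MTZ-treated, had Cxcr4 at 32.0 and 60.5 CPM, a level near that of cytotoxic cells in MTZ-treated.

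The regulators and partners of these receptors were read from lists of genes chosen by name. Of 25 genes that control trafficking (Klf2, Foxo1 and other factors, G protein regulators and integrin activators), 16 had enough UMIs in B cells for MTZ-preventive against the library labelled Healthy, where 0 were higher past 2-fold and 1 lower, Bach2, a repressor that keeps B cells from becoming plasma cells, at -1.01 (-1.23 to -0.79). Klf2, the factor that drives S1pr1 transcription in T cells, stood in B cells at 702 CPM in MTZ-preventive and 439 CPM in the library labelled Healthy, a log2 ratio of 0.68 (0.58 to 0.78), the highest of the listed genes there, while S1pr1 was lower. Rap1a, a small GTPase that activates integrins, followed at 0.49 (0.27 to 0.72), and Rgs2, which dampens receptor signals, was second lowest at -0.95 (-1.23 to -0.67). Of 19 further trafficking receptors in the files 2 could be read in B cells and 0 passed, and none of 12 integrin genes had enough UMIs. Over all genes in B cells, 1.87% were higher past 2-fold and 0.747% lower.

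In CD4 T cells the lists moved more, on a wider background of 6.45% of all genes higher and 3.2% lower. Of 21 control genes 2 were higher (Klf3 and Rgs1) and 3 lower (Lef1, Grk2 and Fermt3). Cd44 was higher among the receptors, and of 3 integrins none passed. In MTZ-preventive Klf3 had 19 UMIs, Rgs1 29, Grk2 9, Fermt3 5 and Cd44 12. Lef1, a factor of naive T cells, stood at 44.9 CPM (7 UMIs) in MTZ-preventive against 224 CPM in the library labelled Healthy, a log2 ratio of -2.32 (-3.66 to -1.24). Cd44, which memory cells carry, was at 1.65 (0.43 to 2.82) and Klf3 at 1.61 (0.67 to 2.52). Ccr7 of the same cells, which naive cells carry, stood at 0.53 with an interval that spans 0.

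In CD8 T cells 1 of 20 control genes passed, Rgs1, a brake on chemokine receptor signals that is common in tissue-resident cells, at 1.41 (0.88 to 1.93), and none of 2 receptors and 1 integrin. Over all genes in CD8 T cells, 1.87% were higher and 1.13% lower. Rap1a, at 0.61 (0.19 to 1.02), was second highest, and Lef1, at -0.92 (-1.39 to -0.47), and Itgb2, the beta chain of LFA-1, at -0.77 (-1.49 to -0.11), were the lowest. The naive list summed in CD8 T cells to 1827 CPM in the library labelled Healthy and 1960 CPM in MTZ-preventive. The effector and memory list summed to 1058 (1011 to 1107) and 831 CPM (752 to 917). The lists thus did not show CD8 T cells moving towards effector and memory genes. In cytotoxic cells 1 of 19 control genes was lower (Lef1), and 0 of 2 receptors and 0 of 3 integrins passed. Over all genes in cytotoxic cells, 2.37% were higher and 0.871% lower. Against the library labelled Healthy, MTZ-treated B cells had Cd44 (10 UMIs), Itgb1 (10 UMIs) and Klf2 (108 UMIs) higher. Foxo1 (3 UMIs), Bach2 (11 UMIs) and Satb1 (7 UMIs) were lower in them. Here 1 integrin and 17 control genes could be read, beside 8.57% of all genes higher and 8.87% lower. MTZ-treated cytotoxic cells had Itgb1 (67 UMIs) and Rgs1 (103 UMIs) higher and Lef1 (12 UMIs) and Satb1 (12 UMIs) lower. In that class 3 integrins and 19 control genes could be read, beside 12.5% of all genes higher and 3.94% lower.

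The ligands were read over all cells and in stroma. Ccl21a, a Ccr7 ligand of lymphatic endothelium and lymph node stroma, stood over all cells at 245 CPM in the library labelled Healthy, 3.52 CPM in AS, 169 CPM in MTZ-treated and 69.9 CPM in MTZ-preventive, and in endothelial cells at 2651, 12.2, 578 and 440.0 CPM in the same order. Cxcl13, the Cxcr5 ligand, stood over all cells at 2.48 CPM in the library labelled Healthy, 559.7 CPM in AS, 34.3 CPM in MTZ-treated and 1016 CPM in MTZ-preventive, and at 2715 CPM in MTZ-preventive fibroblasts. The level of the Cxcr5 gene in B cells did not differ between the library labelled Healthy and MTZ-preventive beyond counting error, beside this range of its ligand. Cxcl12, the Cxcr4 ligand, stood at 128, 309.9, 247 and 323 CPM in the library labelled Healthy, AS, MTZ-treated and MTZ-preventive, and Vcam1, the alpha4 integrin ligand, at 39.3, 106, 127 and 65.8 CPM in the same order.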

How the data were processed

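One gene expression library per group was analysed, each from pooled aortas. The authors counted reads with Cell Ranger 5.0.0 (per the file headers) against mm10 (per the submitters' processing notes) and deposited raw counts of UMIs per gene and barcode, with contig lists for the receptor libraries, which also hold counts of UMIs per contig. Here, barcodes were kept by the study's limits (over 200 genes, over 1000 UMIs, a log10 gene to UMI ratio over 0.7, under 10% mitochondrial and under 5% red blood cell UMIs). Doublets were called from 2 simulated doublets per cell with 2000 variable genes and 30 principal components, and the top 0.8% per 1000 cells were removed. Cells were gated by genes with a UMI: B cells had at least 3 of 8 B genes and at most 1 T and 1 cytotoxic gene, T cells at least 2 of 8 T genes and at most 1 B gene, split by Cd4 against Cd8a or Cd8b1 with at most 1 cytotoxic gene, and cytotoxic cells at least 2 of 8 cytotoxic genes and at most 1 B gene. Cells with more than 3 of 16 genes of other cell types were left out of these gates. Counts of 38 symbols that stood on more than 1 line were summed.

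UMIs were summed over a class and scaled to 1e6 UMIs of that class (CPM), for classes with at least 50 cells, and smaller subsets are given as counts. Levels have exact Poisson, shares Clopper-Pearson and ratios exact conditional binomial 95% intervals. Neither a test nor a p-value was computed, since each group has 1 library. All 9 members were named in every class that could be read, and of the other lists the counts past 2-fold and the 2 highest and 2 lowest ratios in B, CD4 T and CD8 T cells. The members, lists and comparisons were chosen with earlier results of these data known. The alternatives were looser cell limits, doublets kept, stricter gates, receptor gates, no limit on other genes, totals without mitochondrial, ribosomal protein, hemoglobin and receptor genes, the mean over cells, TMM factors, no floor, a floor of 200 CPM, and no shared barcodes. One more, without cells high in MHC class II, was chosen after seeing the data. Steps were tested on simulated data. The software was Python 3.11.15 (matplotlib 3.10.9, scikit-learn 1.9.0, pandas 2.3.3, scipy 1.17.1, numpy 2.4.6) and, for TMM factors, edgeR 4.0.16 in R 4.3.3. Promoter windows and positions came from RefSeq (GRCm38.p6). P2ry8, on the receptor list, was not analysed here. One further gene of the receptor list is not reported here.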

Additional observations from a re-analysis of the deposited data

Results flagged for a closer look

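S1pr1 moved in opposite directions in 2 lymphocyte classes under the same comparison. Between MTZ-preventive and the library labelled Healthy its log2 ratio was 1.42 in CD4 T cells and -0.51 in B cells, each from 1 library per group. The difference between the classes was not tested. Without barcodes that libraries share the CD4 T ratio, with 1 CPM added, was 1.72, and as a mean over cells it was 1.04. The B cell ratio, with 1 CPM added, ranged from -0.60 with TMM factors to -0.12 with receptor gates, and the latter lay outside the reported interval of -0.81 to -0.22.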

How the results depend on the processing

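Of 88 counts of members past 2-fold under the alternatives, 68 stayed within 1.5 times the reported count and 20 did not, and of 366 ratios of members 14 moved beyond the interval of the reported ratio and none past 2-fold changed its sign. S1pr1 in B cells, MTZ-preventive against the library labelled Healthy, was -0.12 with receptor gates against -0.50 as reported with 1 CPM added. The 2 cytotoxic calls of MTZ-treated against the library labelled Healthy became 1 under looser cell limits, doublets kept, stricter gates, totals without mitochondrial, ribosomal protein, hemoglobin and receptor genes, the mean over cells, TMM factors, a floor of 200 CPM and without shared barcodes. The 2 B cell calls of the same comparison became 4 with those totals, with TMM factors and with no floor, and 1 with a floor of 200 CPM. With no floor the calls of MTZ-preventive against the library labelled Healthy rose to 1 in B, 4 in CD4 T, 2 in CD8 T and 1 in cytotoxic cells, and those of MTZ-preventive against MTZ-treated to 7 in B cells. A floor of 200 CPM left 0 in CD4 T cells, and 1 each in B and cytotoxic cells of MTZ-preventive against MTZ-treated, because fewer genes are tested. Other causes were not tested. Cd69 was lower in MTZ-treated than in the library labelled Healthy in every setting that gave a value, by log2 ratios of -2.08 to -1.58 in B cells and -2.14 to -1.23 in cytotoxic cells. The stricter gates left too few MTZ-treated B cells, and receptor gates too few CD4 T and MTZ-treated B cells and no cytotoxic class, so these gave no value. No paired analysis was possible because each group has 1 library. Depth limits Cxcr3, Ccr6 and Cxcr5 outside their main class, and all MTZ-treated B cell values rest on 54 cells.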

Other observations

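The genes whose pattern over the 10 pairs of class and library was most like that of a member, among 1956 genes, were read as a description, since the 10 points share libraries and classes. For Cxcr3 the first was Tbx21, the factor of type 1 cells, with Pearson r = 0.959. For Itgb7 the first was Phf6 (r = 0.956). Trac, the T cell receptor alpha constant gene and 1 of the 8 T gate genes, was among its 3 most alike, with r = 0.940. Cxcr3, Cxcr5 and Ccr6 themselves stayed under the 100 CPM that each compared gene reached in some class and library. For Ccr7 the first was Dnajb9 (r = 0.968), for Cd69 H2-Q4 (r = 0.942), for S1pr1 Rest (r = 0.938), for Cxcr4 Senp2 (r = 0.973), for Itga4 Atp5md (r = 0.954), for Cxcr5 Rilpl2 (r = 0.961) and for Ccr6 Hnrnpk (r = 0.962).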
